A study of Mus musculus with 31 samples.

Results

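The ionotropic GABA and glutamate receptors and the metabotropic glutamate receptors were followed through whole brains of mice injected with oleic acid or physiological serum. Serum below means this physiological serum. Members were taken by name from the non-control probes of the array: the GABA-A subunits of the alpha, beta, gamma, delta, epsilon, theta and rho classes, the AMPA, kainate, NMDA and delta glutamate receptor subunits, and the metabotropic glutamate receptors. Gabra6 was left out because it served as a cerebellar marker. This gave 43 genes, of which 40 could be tested among 25204 genes on the array: 15 of 17 GABA-A subunits, 4 of 4 AMPA, 5 of 5 kainate, 7 of 7 NMDA and 2 of 2 delta subunits, and 7 of 8 metabotropic receptors. A gene with several probes was represented by its brightest one, averaged over the arrays.

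Whole-brain RNA of 31 mice (C57BL/6 females, 6 weeks old) was hybridised to single-colour (Cy3) arrays, 1 for each mouse. Every mouse was anaesthetised with ketamine and xylazine and received 200 µl through the tail vein, as physiological serum (14 mice) or as oleic acid (17 mice, at 1.2 µl for each g the animal weighed). Oleic acid given by this route injures the lung, so the brain was studied as a distant organ, and the serum mice shared the anaesthetic, the injection and the waiting time. Brains were taken after 1, 1.5, 3, 4, 18 or 24 h, and the serum and oleic acid groups held 3 and 3 mice (1 h), 3 and 3 (1.5 h), 2 and 3 (3 h), 2 and 3 (4 h), 2 and 2 (18 h) and 2 and 3 (24 h). Values are log2 processed signals minus the log2 of the 75th percentile of the same array, so that 0 is the level of that percentile. Levels are compared between arrays for 1 gene, never between genes, because each probe has its own efficiency.

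Fast inhibition in brain runs through GABA-A receptors, chloride channels built from alpha, beta and other subunits whose mix sets where the receptor sits and how fast it closes. Fast excitation runs through AMPA and kainate receptors, NMDA receptors add calcium entry that depends on voltage, and the metabotropic receptors act through G proteins. The cerebellum uses its own set of these subunits: granule cells are known for Grin2c, Grm4 and Gabrd and Bergmann glia for Gria4, whereas Grin2b, Grm5, Gabra2, Gabra3 and Gabra5 are known mainly from forebrain.

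Some brains of either treatment carried little cerebellar RNA. Gabra6, the GABA-A subunit of granule cells, was not well above background on 4 arrays, where its log2 signal was -7.50 (serum 1 h replicate 1), -7.59 (oleic acid 1.5 h replicate 2), -7.31 (serum 4 h replicate 2) and -6.12 (oleic acid 4 h replicate 3). On the other 27 arrays it reached up to 2.32. A cerebellar marker score was therefore taken as the mean log2 signal of 11 measured markers of 12 listed (Gabra6, Cbln1, Cbln3, Fat2, Neurod1, Barhl1, En2, Zic1, Pcp2, Slc1a6 and Car8), none of which is a receptor counted here. The score ran from -1.90 to 2.36, with values between those of the low and the high arrays, so the brains do not fall into 2 clean classes. Each marker is part of the score, so each was also fitted on the mean of the other 10. Barhl1 had a slope of 0.01 ± 0.04 there (the error is the standard error, SE), and the other 10 had slopes from 0.37 to 2.36. Neuron markers were well above background on 31 of 31 arrays, as were those of astrocytes, oligodendrocytes and microglia. In whole tissue, fewer cells of a type and less RNA per cell cannot be told apart. The labels do not say how the brains were cut out.

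Promoter sequence was available for 6 of the 12 receptor genes whose signal moved with the cerebellar score, and for 28 of the 43 in all. Shown are the 250 bases before the transcription start of the 3 genes with a window that rose with the score and of 1 that fell, since these sequences can be set beside the direction of the signal. They are RefSeq windows on GRCm38.p6, written 5′ to 3′ on the gene's strand: chr11:115267244-115267493 (minus strand) for Grin2c, chr10:79970474-79970723 (plus) for Grin3b, chr9:4796235-4796484 (minus) for Gria4 and chr7:57387216-57387465 (minus) for Gabrg3. Capitals mark the motifs searched on both strands, which do not overlap here: TTGGC, the half-site of nuclear factor I, CAGATG, an E-box of the kind bound by neuronal bHLH factors, and AGGTCA, the half-site of ROR receptors.
Grin2c: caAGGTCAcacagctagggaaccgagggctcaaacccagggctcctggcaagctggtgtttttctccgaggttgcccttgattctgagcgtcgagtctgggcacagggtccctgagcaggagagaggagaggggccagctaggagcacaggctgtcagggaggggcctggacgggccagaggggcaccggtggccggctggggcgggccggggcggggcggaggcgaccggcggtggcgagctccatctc
Grin3b: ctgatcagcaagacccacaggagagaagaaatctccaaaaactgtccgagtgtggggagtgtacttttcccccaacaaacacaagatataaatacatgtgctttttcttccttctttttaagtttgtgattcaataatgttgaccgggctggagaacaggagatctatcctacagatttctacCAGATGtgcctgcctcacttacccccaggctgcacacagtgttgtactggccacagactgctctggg
Gria4: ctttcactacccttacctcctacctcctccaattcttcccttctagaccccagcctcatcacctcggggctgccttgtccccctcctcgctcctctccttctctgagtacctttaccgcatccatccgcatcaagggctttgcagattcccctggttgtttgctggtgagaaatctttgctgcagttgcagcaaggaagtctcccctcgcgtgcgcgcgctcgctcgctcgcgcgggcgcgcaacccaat
Gabrg3: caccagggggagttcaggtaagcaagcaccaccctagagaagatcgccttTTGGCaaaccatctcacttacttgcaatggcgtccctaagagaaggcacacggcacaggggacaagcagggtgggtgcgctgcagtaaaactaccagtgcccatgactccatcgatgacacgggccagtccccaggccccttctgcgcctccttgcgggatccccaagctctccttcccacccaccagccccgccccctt
Grin2c held 1 AGGTCA match and Grin3b 1 CAGATG match, and Gabrg3 held 1 TTGGC match. Gria4 held none of the 3. Of all 32851 windows of this length, 41.5% held TTGGC, 14.4% CAGATG and 14% AGGTCA on either strand, so single matches of this kind are common. Grm4, Grin2b, Grin2a and Grm5 are named without a sequence.

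Of the 43 receptors, 39 were well above background on 31 of 31 arrays. Gabrq, the theta subunit, was above background on 10 of 31, and Gabre (epsilon), Gabrr3 (rho 3) and Grm6, a receptor of retinal bipolar cells, on none, so the last 3 were not tested. Among the 39 the spread between the lowest and the highest array ran from 0.60 to 2.15 log2 units, with a median of 1.08. It was under 1 unit, that is under 2-fold, in 17 and 1 unit or more in 22.

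**Figure D1:**
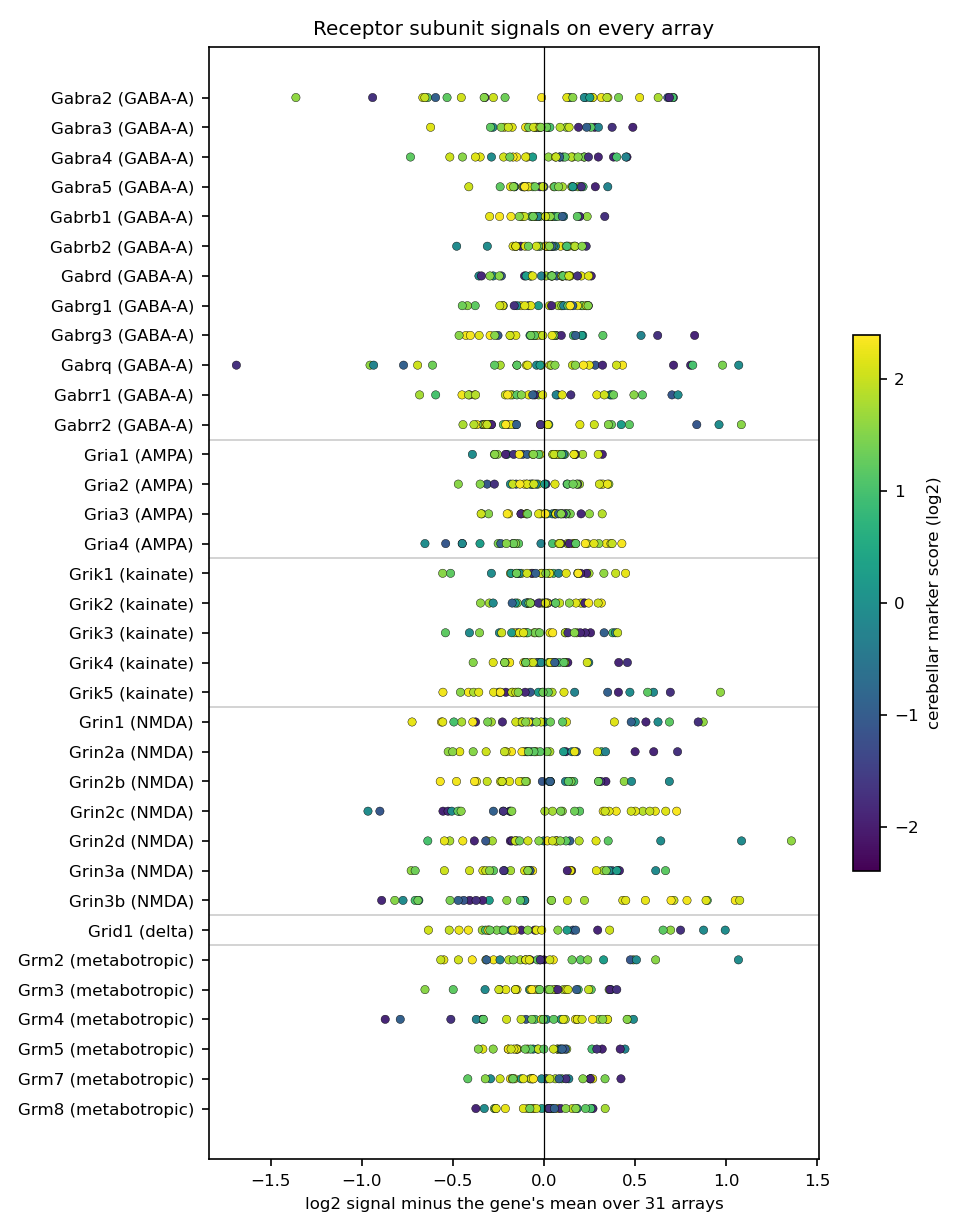
Log2 signal of 35 receptor genes on 31 arrays, each minus the gene's own mean over the arrays (horizontal axis), 1 point an array, coloured by the cerebellar marker score. Dark points, from arrays with a low score, lie to the left for Grin2c, Grin3b and Grm4 and to the right for Grin2a, Grm5 and Gabrg3.

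The first question was which receptors moved with cerebellar RNA. Each gene was fitted with limma on the 12 group means and the score, so that the slope rests on mice of 1 treatment and time. A slope is the log2 change in signal for 1 unit of score, that is for a 2-fold change in the geometric mean of the markers. At a Benjamini-Hochberg adjusted p under 0.05 over all genes, which is what "called" means below, 12 of the 40 receptors were called, 6 with a positive and 6 with a negative slope. Of all genes tested 8.97% were called, 4.23% with a positive and 4.74% with a negative slope. The median slope was -0.03 over the receptors and -0.01 over all genes.

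Of the receptors, 6 fell where cerebellar markers were low. Grin3b, the GluN3B subunit known from motor neurons of brainstem and spinal cord, had the steepest slope at 0.31 ± 0.04 (adjusted p = 2.11e-05). Grin2c, the GluN2C subunit of granule cells, had 0.26 ± 0.04 (adjusted p = 9.45e-05). Smaller slopes were those of Grm4, a presynaptic receptor of parallel fibres, at 0.14 ± 0.03 and of the AMPA subunit Gria4 at 0.12 ± 0.02.

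The single brains show the size of this. In serum mice at 1 h, Grin2c stood at 2.27 in replicate 1, the brain with low Gabra6, and at 3.22 and 3.15 in replicates 2 and 3. In serum mice at 4 h it was 2.64 in replicate 2 against 3.30 in replicate 1, and in oleic acid mice at 4 h 2.60 in replicate 3 against 3.02 and 3.49. In each of these groups the brain with low Gabra6 was the lowest. At 1.5 h the order differed: Grin2c was 2.30 in oleic acid replicate 2, 2.91 in replicate 3 and 1.86 in replicate 1. That last array was among the dimmest, with a 75th percentile of 334 intensity units against a range of 306 to 813 over all arrays, and its cerebellar score was -0.06.

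Grin3b was lowest in the brain with low Gabra6 in all 4 groups. It was -2.00 against -0.81 and -0.54 in serum mice at 1 h and -2.48 against -2.28 and -2.11 in oleic acid mice at 1.5 h. At 4 h it was -1.93 against -0.52 in serum mice and -1.97 against -0.70 and -0.70 in oleic acid mice. Serum 1.5 h replicate 3, with a score of -1.10, had -2.03 against -1.70 and -2.30, so it was not the lowest. Serum 18 h replicate 1, with a score of -0.93, had -2.06 against -0.88. Its pattern over the score was not straight: arrays with a score near 1.5 had values as low as -2.41 (oleic acid 24 h replicate 3), close to those of the brains with low Gabra6.

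Markers of hindbrain and brainstem moved the same way as Grin3b. Of 12 such genes, a list added after the data were seen, 11 were measured, all 11 had positive slopes and 7 were called. Of all genes 4.23% were called with a positive slope. Hoxb5, a patterning gene of the hindbrain and spinal cord, had a slope of 1.41 ± 0.22 and Dbh, the enzyme that makes noradrenaline, 0.59 ± 0.10. Hoxb3, Hoxb4, Hoxb5, Hoxc4 and Hoxd4 were above background on 9 to 14 arrays each, so their slopes rest in part on values near background. Glra1, the glycine receptor subunit of brainstem and spinal cord, had 0.36 ± 0.07 and was above background on 31 of 31. The part of brainstem RNA in the Grin3b slope was not tested.

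**Figure D2:**
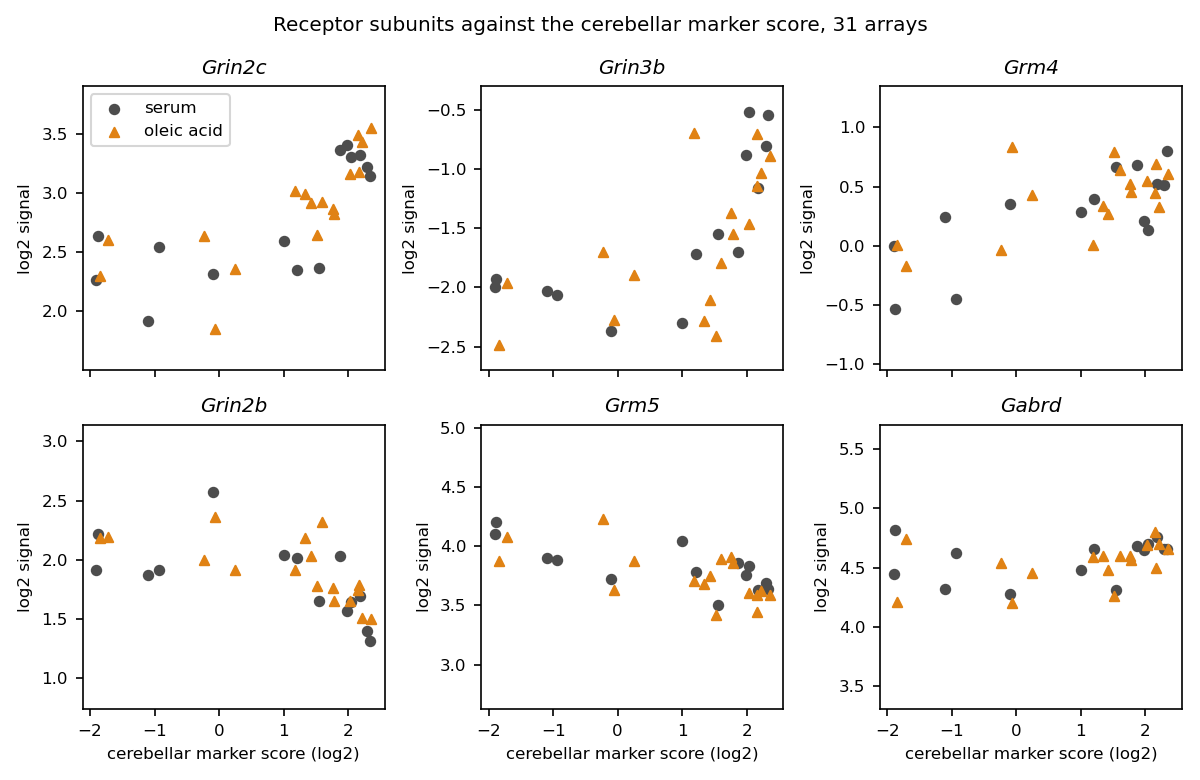
Log2 signal of 6 receptors (vertical axes of equal length) against the cerebellar marker score (log2, horizontal axis) on 31 arrays, circles for serum and triangles for oleic acid. Grin2c, Grin3b and Grm4 rise to the right, Grin2b and Grm5 fall, and Gabrd, which was not called, is close to level.

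The 6 receptors with negative slopes were higher where cerebellar markers were low. Grin2b, the GluN2B subunit of forebrain NMDA receptors, had a slope of -0.13 ± 0.03 (adjusted p = 0.0156) and Grin2a, the GluN2A subunit of mature synapses, -0.12 ± 0.03 (adjusted p = 0.0183). Grm5, a receptor of forebrain neurons, had -0.09 ± 0.02 (adjusted p = 0.00714). The GABA-A subunits were Gabrg3 (gamma 3) at -0.11 ± 0.03, Gabra3 (alpha 3) at -0.10 ± 0.03 and Gabrb1 (beta 1) at -0.06 ± 0.02. The Gabrb1 call is close to the threshold (adjusted p = 0.0404). No GABA-A subunit was called with a positive slope here, though Gabrd was with quantile normalization and in the deposited, also quantile-normalized, value table.

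Grm5 was highest in the brain with low Gabra6 in all 4 groups, at 4.10 against 3.69 and 3.64, 3.87 against 3.63 and 3.75, 4.20 against 3.84, and 4.07 against 3.71 and 3.59. Grin2a likewise stood at 1.53 against 0.98 and 0.85, 1.15 against 0.96 and 1.05, 1.63 against 0.94, and 1.76 against 1.01 and 0.82, in the order serum 1 h, oleic acid 1.5 h, serum 4 h and oleic acid 4 h. Gabrg3 was 2.13 in serum 4 h replicate 2 against 1.24 in replicate 1. Gabrg3 and Gabra3 were also highest in the brain with low Gabra6 in each of the 4 groups, while Grin2b and Gabrb1 were so in 3 of them. In oleic acid mice at 1.5 h, Grin2b was 2.36 in replicate 1, 2.18 in replicate 2 and 2.03 in replicate 3. Serum 1.5 h replicate 3, with Gabra6 at -3.93 and a score of -1.10, did not follow this. Its Gabrg3 of 1.05 was below 1.28 and 1.46, and its Gabra3 of 3.29 below 3.40 and 3.35. Its Grm5 and Grin2a lay between those of its group mates, which were on another slide. Serum 18 h replicate 1, with a score of -0.93, was above replicate 2 for each of these receptors.

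The negative slopes were shallower than those of Grin3b and Grin2c. Markers of striatum moved the same way, with 4 of 5 measured called lower, against 4.74% of all genes. Adora2a, the adenosine receptor of striatal neurons, had -0.21 ± 0.05. Microglia markers had 3 of 4 called lower, with the fractalkine receptor gene Cx3cr1 at -0.11 ± 0.02. Of 6 neuron markers 1 was called, against 8.97% of all genes in either direction. It was the synaptic vesicle gene Syn1, at -0.09 ± 0.02. Each value is a share of the RNA labelled, and the part of this in the slopes was not tested.

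Of the 6 receptors listed for cerebellar cells, 5 were called with positive slopes, and Gabrd was not. Gabrd, the delta subunit of tonic inhibition, had 0.05 ± 0.02 (adjusted p = 0.211) with an interval from -0.0011 to 0.09. It was called with quantile normalization (0.07 ± 0.02, adjusted p = 0.0131) and in the deposited value table (0.09 ± 0.02, adjusted p = 0.00673), and not under the other alternatives. The deposited table is itself quantile-normalized, so both calls share a kind of normalization. Gabrd was 4.45 against 4.65 and 4.65 in serum mice at 1 h, but 4.81 against 4.69 at 4 h. Of the 5 listed for forebrain, Grin2b, Grm5 and Gabra3 were called lower, Gabra5 had -0.05 ± 0.02 (adjusted p = 0.173) and Gabra2 -0.02 ± 0.06 (adjusted p = 0.877). Both short lists were drawn up with earlier results of these data known.

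The remaining receptors were not called. Gabrb2, a main beta subunit of synaptic GABA-A receptors, had -0.01 ± 0.02. The AMPA subunits Gria1, Gria2 and Gria3 had slopes from -0.02 to 0.05 and the 5 kainate subunits from -0.11 to 0.03. Grid1 had -0.15 ± 0.05 (adjusted p = 0.0805) and Grin1, the subunit that every NMDA receptor needs, -0.13 ± 0.05 (adjusted p = 0.121). Grin1, Grid1 and the kainate subunit Grik5 shared their high arrays: oleic acid 1 h replicate 3, the dimmest array with 54.3% of spots above background, held the highest Grin1 (4.81) and Grik5 (4.59) values, and without it Grin1 and Grik5 were called too.

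**Figure D3:**
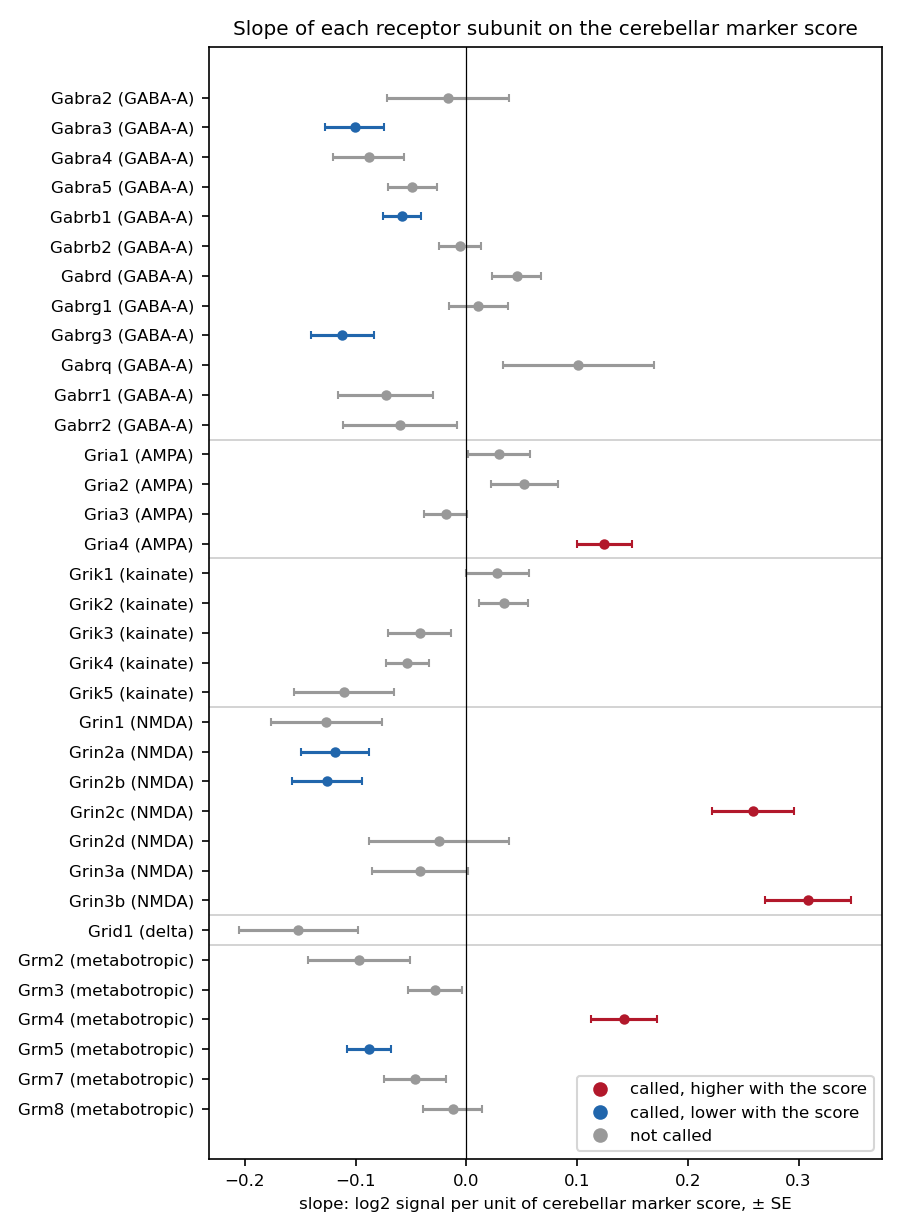
Slope of 35 receptor genes on the cerebellar marker score (log2 signal for 1 unit of score; points with SE bars), ordered by family. Of these, 4 are called with a positive slope (red), 6 with a negative slope (blue) and the rest (grey) are not called.

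Other probes gave the same direction. For 8 of the 12 called receptors the array held 12 further probes that could be tested, of which 12 had the sign of the main probe and 8 were called (adjusted over all probes). A second Gabra3 probe was dim and nearly level (-0.01 ± 0.06), as was a further Gabrg3 probe (-0.01 ± 0.04). Among receptors not called, the probes of Gria2 differed in sign, at 0.05 ± 0.03 for the brighter and -0.08 ± 0.02 for the other.

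Within slides the directions mostly held. On the 4 slides that had at least 2 arrays of a group, 9 of the 12 called receptors had the sign of the whole fit on every slide. Grin2c had slopes of 0.24, 0.33, 0.21 and 0.51 on slides 1, 3, 4 and 5. On slide 5 the slopes rest on 5 arrays with scores from 1.34 to 2.36, against -1.90 to 2.34 on slide 1. Gabrb1, Grin2a and Grm5 changed sign on 1 slide. Without the 4 arrays on which Gabra6 was not well above background, 4 receptors were called: Grin2c, Grin3b, Gria4 and the kainate subunit Grik1. Scaling each array to its median in place of its 75th percentile also left 4 calls, among them Grin2c, Grin3b and Grm4. None of the 6 receptors called with a negative slope was called in either of these 2 settings. Their adjusted p for the slope ran from 0.111 to 0.739 without the 4 arrays and from 0.158 to 0.376 with the array median. Without serum 4 h replicate 1 or replicate 2, 6 receptors were called, and without oleic acid 4 h replicate 3, 7. The share of all genes called is not given for these settings, so the counts cannot be read as particular to the receptors.

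Of 56 transporters, scaffolds and auxiliary subunits that work beside the receptors, 18 were called, 3 with positive and 15 with negative slopes, against 4.23% and 4.74% of all genes. The other 38 were not called. The smallest adjusted p belonged to Homer3, a synaptic scaffold of Purkinje cells, at 0.40 ± 0.04. Shisa6, an AMPA receptor partner, had 0.13 ± 0.02. Cnih3, another AMPA partner, had -0.12 ± 0.02, and Slc1a1, a neuronal glutamate transporter, -0.12 ± 0.02. The median slope of the 56 was -0.04.

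The second question was whether oleic acid changed receptor transcripts. No receptor was called at any of the 6 times, for the mean effect over the times or for a difference of the effect between times (limma). Across all genes 0% were called at 1, 1.5, 3, 18 and 24 h, for the mean effect and for the treatment by time test, and 0.00397% (1 gene) at 4 h. Receptors with an unadjusted p under 0.05 numbered 2 at 1 h, 2 at 1.5 h, 2 at 3 h, 1 at 4 h, 2 at 18 h, 3 at 24 h and 0 for the mean effect, of 40 each time. Over all genes the shares at that unadjusted level were 4.86%, 5.34%, 4.84%, 3.04%, 7.27%, 6.58% and 4.63%. With the cerebellar score in the fit the receptors numbered 8 at 1 h, 3 at 1.5 h, 3 at 3 h, 1 at 4 h, 1 at 18 h, 5 at 24 h and 0 for the mean effect. The shares of all genes were then 7.13%, 6.54%, 5.73%, 3.51%, 5.97%, 7.42% and 4.78%, and no receptor was called. For the treatment by time test 2 receptors had such a p, Grm3 among them, against 5.44% of all genes.

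For the mean over the 6 times the receptors lay close to 0. The median difference, oleic acid minus serum, was -0.0028 over the 40 receptors and -0.0064 over all genes. The 95% interval lay within 0.5 log2 units of 0 for 39 of the 40, the exception being Gabrq, which is dim. The interval of Gabrb2 ran from -0.10 to 0.10. That of Grin2c ran from -0.23 to 0.48. With the score in the fit the difference of Grin2c was 0.03 ± 0.10, against 0.12 ± 0.17 without it.

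Grm3, a receptor of astrocytes and presynaptic endings that lowers cyclic AMP, was the receptor with the smallest unadjusted p at 3 h and at 24 h. At 3 h the serum mice had 0.52 and 0.63 and the oleic acid mice 0.76, 0.97 and 1.21 (difference 0.40 ± 0.16, unadjusted p = 0.0185, adjusted p = 0.938). At 24 h the serum mice had 0.35 and 0.19 and the oleic acid mice 0.60, 0.82 and 0.87 (0.50 ± 0.16, unadjusted p = 0.00492, adjusted p = 0.657). The groups did not overlap at either time. At 3 h the oleic acid value of 1.21 was on slide 4 and all other values on slide 3. At 24 h the serum value of 0.19 was on slide 2 and all other values on slide 5. At 18 h the order was turned, with 1.02 and 1.09 in serum mice and 0.69 and 0.78 in oleic acid mice (-0.32 ± 0.17). There the serum arrays lay on slide 4 and the oleic acid arrays on slide 5, so treatment and slide cannot be told apart. The treatment by time test of Grm3 gave an unadjusted p of 0.0171 and an adjusted p of 0.836.

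Other receptors with an unadjusted p under 0.05 came from several families and none was called. Gabrb2 differed by -0.26 ± 0.11 at 1.5 h. Grik2, a kainate subunit, differed by -0.34 ± 0.13 at 1 h. Gabrq differed by -1.20 ± 0.44 at 4 h, where its signals of -4.97 to -7.37 lay near background. The kainate subunits Grik1 and Grik3 differed by 0.46 ± 0.18 and 0.42 ± 0.19 at 24 h.

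For Grm4 at 18 h the serum mice had -0.45 and 0.21 and the oleic acid mice 0.69 and 0.61, a difference of 0.77 ± 0.29 (unadjusted p = 0.0161, adjusted p = 0.673). Serum replicate 1 had a cerebellar score of -0.93, and with the score in the fit the difference was 0.52 ± 0.21. Both serum arrays lay on slide 4 and both oleic acid arrays on slide 5, so at 18 h treatment and slide cannot be told apart within the slides.

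Receptors whose groups did not overlap were also counted. At 1 h 2 of 40 were apart, against 9.9% of all genes, and at 1.5 h 3, against 10.8%. At 3 h 6 were apart against 17.7%, at 4 h 7 against 18.1%, at 18 h 18 against 52.4% and at 24 h 12 against 28.9%. With few mice in a group such separations are frequent.

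The split into higher and lower receptors depended on the scaling. The share of the 40 that were higher in oleic acid mice was 57.5%, 40%, 55%, 50%, 40% and 60% at 1, 1.5, 3, 4, 18 and 24 h, and with each array scaled to its median 70%, 27.5%, 72.5%, 12.5%, 25% and 75%. That scaling moved the median of all genes to 0.13 at 3 h, -0.19 at 4 h and -0.18 at 18 h. For the mean effect the share was 47.5%, and 65% with quantile normalization, 67.5% in the deposited value table and 40% with the array median.

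**Figure D4:**
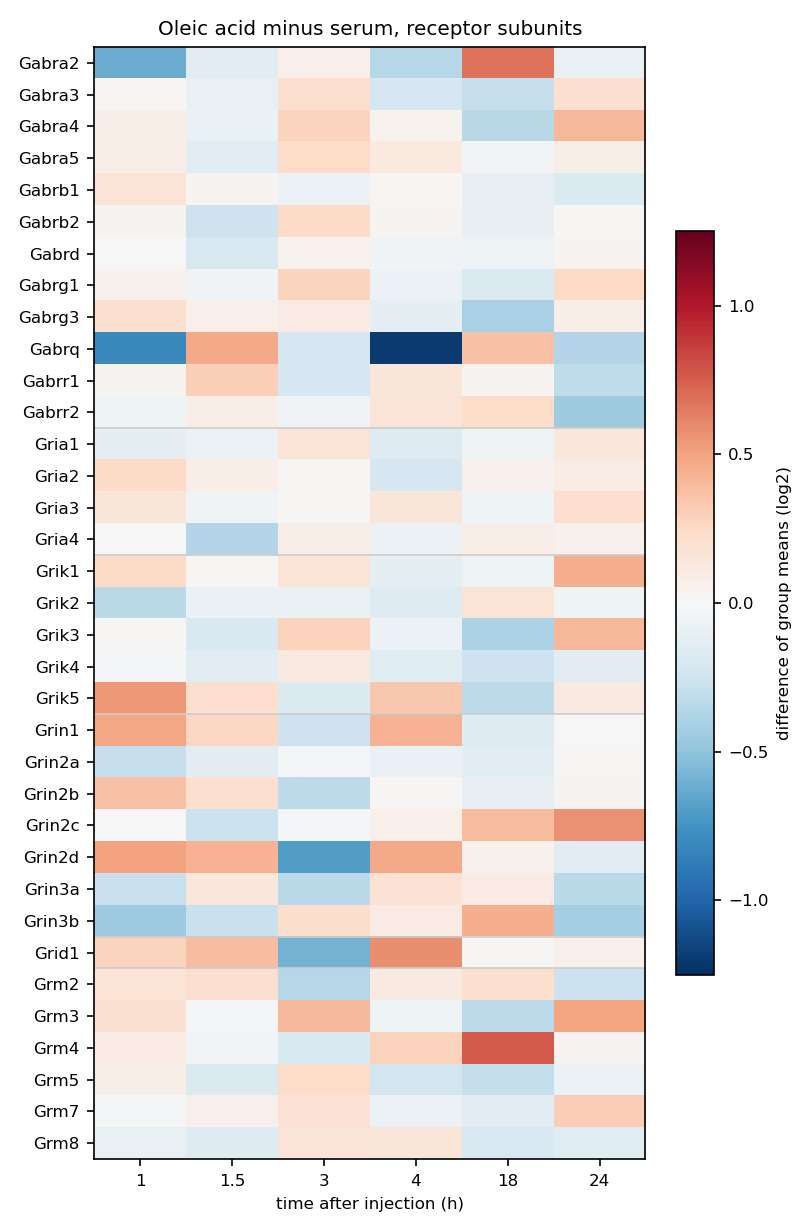
Difference of group means, oleic acid minus serum (log2, colour), for 35 receptor genes (rows, ordered by family) at 6 times (columns). The deepest colours include those of Gabrq at 4 h (-1.20) and Grm4 at 18 h (0.77), and no cell was called.

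The third question was whether receptor transcripts changed over the day of the experiment. In serum mice 2 of 40 receptors were called by an F-test over the 6 times, Grm3 (adjusted p = 0.0238) among them, against 10.4% of all genes. Another 8 reached only an unadjusted p under 0.05, which 34.6% of all genes did. In oleic acid mice 0 were called, against 7.07% of all genes, and 6 had an unadjusted p under 0.05, against 26.3% of all genes. They included Gabra2, Gabrq, Grin3a, Gria4 and Grik4. Times and slides largely coincide, so most of this comparison cannot separate the hour from the slide.

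Grm3 in serum mice was lowest at 24 h, at 0.27 ± 0.11 (SD, n = 2), and low at 3 h, at 0.58 ± 0.08 (n = 2). It was 0.80 ± 0.11 at 1 h (n = 3), 0.84 ± 0.22 at 1.5 h (n = 3), 1.09 ± 0.16 at 4 h (n = 2) and 1.06 ± 0.05 at 18 h (n = 2). The 2 mice at 24 h were below all other serum mice. In oleic acid mice the means lay between 0.73 and 1.04 and the test over times was not called. The 4 h and 18 h serum mice shared slide 4, and between them Grm3 differed by -0.04.

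With slide as a fixed block no receptor was called over time in serum mice (adjusted p = 0.994 for Grm3), and as a random block none either (0.179). Without the 4 arrays with low Gabra6 none was called, at 0.0708 for Grm3. With the cerebellar score in the fit 4 were called in serum mice, Grm3 and Grin3b among them, and Grin3b alone in oleic acid mice. Without either serum mouse of 18 h or of 24 h (replicate 1 or 2) no receptor was called in serum mice, and without oleic acid 1 h replicate 3 or serum 1.5 h replicate 3 there were 4 calls. For these settings too, the share of all genes called is not given. Of the 56 other synapse genes 1 was called over time in serum mice, against 10.4% of all genes. It was the AMPA receptor partner Cacng4 (adjusted p = 0.0242).

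**Figure D5:**
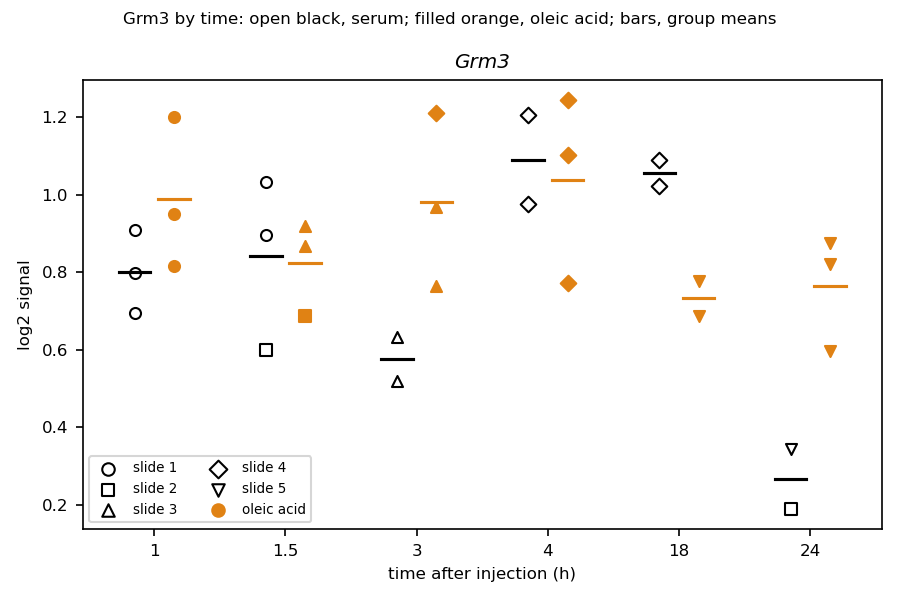
Log2 signal of Grm3 (vertical axis) against time after injection (h, categories), 1 point a mouse, open black for serum and filled orange for oleic acid, with the slide as the symbol and bars at group means. The serum mice at 24 h have the lowest Grm3 values (0.19 and 0.35).

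Gabra2, an alpha subunit of forebrain synapses, was not called over time in either treatment (adjusted p = 0.0695 in serum and 0.0873 in oleic acid mice), and its call depended on the setting. All 7 mice measured at 4 h or as serum at 18 h, which share slide 4, had values between -0.65 and -0.04, while the last array of that slide, oleic acid 3 h replicate 3, had 0.43. The 12 mice of 1 and 1.5 h had values from 0.52 to 1.00 except oleic acid 1 h replicate 3, which had -1.07. On slide 5 the oleic acid mice had 0.41 and 0.28 at 18 h and 0.01, 0.07 and -0.04 at 24 h, and serum 24 h replicate 1 had -0.24. The other serum mouse of 24 h, on slide 2, had 0.45. Low values were found on slides 4 and 5. The lowest of all, that of oleic acid 1 h replicate 3, was on slide 1 and came from the dimmest array. Times and slides largely coincide, and the cause of these differences was not tested. Without oleic acid 1 h replicate 3 Gabra2 was called over time in serum (adjusted p = 0.00158) and in oleic acid mice (adjusted p = 0.000689), and without oleic acid 1 h replicate 2 likewise (0.0374 and 0.0279). In serum mice it was also called with normexp (0.0497), in the deposited value table (0.0465) and with the replicate block (0.0365). With slide as a fixed block the adjusted p was 1.0 in serum and 0.989 in oleic acid mice.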

How the data were processed

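Cy3 intensity was measured on 31 single-colour Agilent arrays. Per the submitters' processing notes and the file headers, the authors extracted the scans with Agilent Feature Extraction 10.5.1.1. The deposited files hold processed Cy3 intensity after background subtraction, not normalized between arrays, and, per the file headers, flags that mark spots as well above background or as non-uniform. A deposited table of log2 values, quantile-normalized by the authors, served as an alternative. Its scale was found by setting it against the scanner intensities, and its centring is not given in the sources used here. Processed intensities were log2-transformed and scaled to the 75th percentile of non-control spots. Spots marked non-uniform, up to 107 an array, were left out, and repeated spots averaged. Kept were 35653 of 55681 probes, those that every array of some group (12 groups) detected above background, of which 35499 were measured on all arrays. This last requirement came after the data were examined. Coordinates of probes follow the array's own annotation (mm9).

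A linear model with 12 group means (19 residual degrees of freedom, 18 with the score) was fitted to 25204 genes with limma 3.58.1 in R 4.3.3 and tested on simulated data. The simulated noise was independent between arrays, whereas the correlation within slides estimated from the data was 0.22. P-values were adjusted by Benjamini-Hochberg over all genes. Precision is limited by how many arrays there are and by dim spots: 54.3% to 76.3% of spots exceeded background well. Replicates are separate mice per the labels. The members, the lists and the tests were chosen with earlier results of these data known. Any receptor could be named; some that enter the counts are not reported here. Of the other synapse genes, up to 4 called genes with the smallest adjusted p were named, and markers serve as checks.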

Additional observations from a re-analysis of the deposited data

How the results depend on the processing

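The alternatives were the deposited value table, quantile normalization, array-median scaling, normexp (offset 50), all probes without a filter, only probes detected on 24 arrays, averaging a gene's probes, slide as a fixed or random block, a replicate block, limma's eBayes with trend and robust options, the score as a covariate, no arrays with low Gabra6, and Gabra6 alone as the score. For treatment, at each time, for the mean effect and for treatment by time, 0 receptors were called under each of the 13 alternatives that apply and without each of the 31 arrays in turn.

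Receptors called over time in serum mice, 2 in all, numbered 4 with normexp, with the deposited table and with the score as a covariate, 1 with the array median and with no filter, and 0 with slide as a fixed or random block and without the low Gabra6 arrays. With 1 array left out they ranged from 0 to 4, falling to 0 without a serum mouse of 18 h or 24 h. In oleic acid mice the count was 1 with the score as a covariate, and 0 to 1 with 1 array left out. It was 1 without oleic acid 1 h replicate 2 or 3 or 24 h replicate 3. Receptors called on the score, 12 in all, numbered 4 with the array median and 4 without the low Gabra6 arrays, and 6 to 14 with 1 array left out. The shares of all genes called are not set beside these counts, which therefore cannot be read as particular to the receptors. No slope changed sign. Grin2c and Grin3b were called under each of the 13 alternatives and without each of the 31 arrays, Gria4 under 12 of 13 alternatives and Gabrb1 under 4. Gabra3 was called under 8 of 13, Grin2b under 10, and Gabrg3, Grin2a and Grm5 under 11 each. For the causes of these changes, the cause was not tested. The deviations of the 14 same-numbered pairs correlated between -0.62 and 0.39, with 3 over 0.1. With 2 or 3 mice a group these values cannot decide whether the replicate numbers pair mice. At 18 h both pairs had the same value (-0.04), because the deviations of 2 mice mirror each other. With the replicate block 3 receptors were called over time in serum mice and 10 on the score. With 2 or 3 mice a group, array number and dim signal limit what can be detected.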
